A study of Mus musculus with 14 samples.

Results

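The mitosis and spindle genes are a list of 42 mouse genes whose proteins condense chromosomes, build the spindle, attach it to kinetochores, guard the attachment and divide the cell. They were followed in the mouse preadipocyte line 3T3-L1, whose fibroblast-like cells turn into fat cells when given a hormone cocktail. Of the 42 listed genes, 41 had a probe set that the platform annotation assigns to a single gene symbol, out of 18193 such genes on the array. Ccnb1, which encodes cyclin B1, was not analysed here. Each gene was read from its brightest such probe set over all 14 arrays. The values are deposited log2 expression values, so a difference of 1 is a doubling.

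In dividing cells these genes are transcribed late in the cycle, from late S phase to mitosis, and are held down in resting cells. The repression runs through the DREAM complex, which contains the pocket proteins p130 and p107 and binds promoters at an element called CHR. Activation runs through the MuvB core of the same complex together with B-Myb and FOXM1. Entry into mitosis is driven by Cdk1 with cyclins A and B, and exit by the anaphase-promoting complex, an enzyme that marks securin and cyclin B for destruction. In 3T3-L1 cultures confluent preadipocytes stop dividing, re-enter the cycle for a short clonal expansion when the hormones are added, and then leave it to become fat cells.

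Total RNA was amplified and hybridised to 1 expression array per sample. The 4 groups were KD TP53INP2 cells at day 7 (4 arrays), control cells at day 7 (4 arrays), KD TP53INP2 cells at day 0 (3 arrays) and control cells at day 0 (3 arrays). All cells carried a lentivirus, which encoded an siRNA sequence against TP53INP2 in the KD cells and a scrambled sequence in the controls. Day 0 was 2 days after confluence, and day 7 cells had been kept in differentiation medium since then. TP53INP2 (mouse gene Trp53inp2) encodes a protein that takes part in autophagy and acts as a nuclear receptor coactivator. The labels name no separate cultures or clones for the replicates, whose spread may therefore be technical, and the virus that a line carries cannot be told apart from the loss of TP53INP2.

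The targeted gene followed the labels, with a log2 difference of -1.57 ± 0.13 at day 7 (SE, adjusted p = 0.000111, limma) and -1.17 ± 0.15 at day 0 (adjusted p = 0.00205), or 33.7% and 44.4% of the control level. At day 7 Trp53inp2 lay at 10.20, 10.06, 10.01 and 10.45 in KD cells, against 11.74, 11.77, 11.78 and 11.70 in control cells. At day 0, Trp53inp2 lay at 11.06, 11.14 and 11.66 in KD cells, against 12.45, 12.53 and 12.38 in control cells. KD replicate 3 of day 0 was the least lowered array and stood apart from the other two in most of the results that follow. Against the control of the same number its Trp53inp2 was lower by 0.73 on the log2 scale, while replicates 1 and 2 were lower by 1.40 and 1.39. Without that array the day 0 difference of Trp53inp2 was -1.36 ± 0.12 (SE, adjusted p = 0.000376, limma), and the day 0 counts of members and of the other gene lists are given with and without it. Replicates 1 and 2 of a group lay close together. Without the dimmest 40% of genes, the SD of their difference at day 7 was 0.18 in KD and 0.11 in control cells. At day 0 it was 0.22 in KD and 0.25 in control cells. Other array pairs of a group gave 0.31 to 0.54. With replicates 1 and 2 averaged into 1 sample, all members were still called higher at day 7 and 0 between the lines, while the lowering of Trp53inp2 at day 0 (-1.06, adjusted p = 0.165) no longer passed. It did not pass either with day 0 fitted alone and the replicate number as a block (-1.17, adjusted p = 0.0802).

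The labelled cell types were checked against their markers. With differentiation 19.0% of all genes were called higher in KD and 10.1% in control cells, and 16.8% and 12.8% were called lower. Of 8 measured adipocyte markers, 6 rose between day 0 and day 7 in KD cells and 6 in control cells, among them Adipoq, the fat cell hormone adiponectin, by 6.03 ± 1.05 (SE, adjusted p = 0.000611, limma) in KD cells and 5.87 ± 1.05 (adjusted p = 0.00161) in control cells. Lep, the leptin gene, lay between 2.18 and 2.81 in all 14 arrays. Of 6 measured preadipocyte markers, 4 fell in KD cells and 3 in control cells, and 0 rose. Among them Dlk1, an inhibitor of fat cell formation, fell by 1.48 ± 0.25 (adjusted p = 0.000515) in KD cells and fell by 0.93 ± 0.25 (adjusted p = 0.0177) in control cells. Of those that did not pass, Cd34 stood at -0.25 ± 0.46 in KD and 0.79 ± 0.46 in control cells and Zfp423 at 0.17 ± 0.31 in KD and -0.11 ± 0.31 in control cells (SE). The defining markers of macrophages (Adgre1) and of endothelium (Cdh5) lay between 2.10 and 3.04 in every array. Of the 7 macrophage markers Csf1r (7.27 to 9.88) and Cd14 (7.46 to 9.12) were the brightest, and 0 of these 7 and of 5 endothelial markers were called between KD and control cells on either day.

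Most of the members' promoters hold the letters of a CHR, which DREAM is known to bind, and of a CCAAT box, bound by the factor NF-Y. RefSeq promoter windows of assembly GRCm38.p6, from 250 bases before to 50 bases after the start of the gene, were at hand for 35 of the 41 measured members. Of these, 29 (82.9%) held a CHR, searched as TTTGAA or TTCGAA on both strands, against 17.5% of the 14452 measured genes with a window. A CCAAT box, searched as CCAAT on both strands, stood in 26 (74.3%) of the member windows, against 42.0% of all windows. Both elements stood in 25 (71.4%) of the member windows, against 7.05% of all. An E2F element, searched as TTTGGCGC, TTTCCCGC, TTTGCCGC or TTTCGCGC on both strands, stood in 2 (5.71%), against 3.81% of all. In 27 of the 29 members with a CHR, a match lay within 50 bases of the start, a count that was not made over all windows. Among the members' windows 2 matches overlapped another motif. A match is a run of letters and no measured binding site.

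The windows of 6 members are printed to show these elements in genes that act at successive steps: the kinase Cdk1, its cyclin partner Ccnb2, the checkpoint kinase Bub1, the anaphase activator Cdc20, the ubiquitin-conjugating enzyme Ube2c and the chromosome enzyme Top2a. Each runs 5′ to 3′ on the strand of the gene, from 150 bases before to 30 bases after its start. Capitals mark CHR and CCAAT matches on either strand, so that ATTGG is a CCAAT box and TTCAAA a CHR read from the other strand.
Cdk1, chr10:69352883-69353062, minus strand: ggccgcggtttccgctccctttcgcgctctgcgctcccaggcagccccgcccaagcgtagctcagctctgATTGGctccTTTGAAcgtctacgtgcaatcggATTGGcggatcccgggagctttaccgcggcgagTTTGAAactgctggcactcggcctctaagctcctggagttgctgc
Ccnb2, chr9:70421525-70421704, minus strand: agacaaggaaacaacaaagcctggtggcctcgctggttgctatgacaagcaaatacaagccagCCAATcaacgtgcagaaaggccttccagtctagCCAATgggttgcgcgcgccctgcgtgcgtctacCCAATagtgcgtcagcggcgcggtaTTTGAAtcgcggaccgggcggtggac
Bub1, chr2:127831830-127832009, minus strand: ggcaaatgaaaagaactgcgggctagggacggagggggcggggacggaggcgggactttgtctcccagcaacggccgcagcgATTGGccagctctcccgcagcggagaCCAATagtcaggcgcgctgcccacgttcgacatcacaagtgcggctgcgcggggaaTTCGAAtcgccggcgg
Cdc20, chr4:118437314-118437493, minus strand: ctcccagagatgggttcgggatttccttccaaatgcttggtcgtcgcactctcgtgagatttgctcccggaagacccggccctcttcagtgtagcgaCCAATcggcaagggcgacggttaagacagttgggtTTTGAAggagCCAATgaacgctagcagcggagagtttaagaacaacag
Ube2c, chr2:164769779-164769958, plus strand: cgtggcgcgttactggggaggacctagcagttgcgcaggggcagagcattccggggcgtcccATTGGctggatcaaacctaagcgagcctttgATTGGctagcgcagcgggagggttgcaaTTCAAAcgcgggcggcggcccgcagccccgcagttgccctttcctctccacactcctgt
Top2a, chr11:99024160-99024339, minus strand: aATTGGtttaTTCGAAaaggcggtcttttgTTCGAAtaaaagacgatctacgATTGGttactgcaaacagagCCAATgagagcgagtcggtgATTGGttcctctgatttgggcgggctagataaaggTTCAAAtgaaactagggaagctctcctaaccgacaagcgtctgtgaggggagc

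All 41 measured members rose with differentiation, in KD cells and in control cells alike (limma, Benjamini-Hochberg adjusted p under 0.05 over all 18193 genes). In KD cells the median log2 fold change, day 7 over day 0, was 3.28, and single members ran from 1.56 for Incenp to 3.86 for Bub1. In control cells the median was 2.40, with a range from 1.11 for Incenp to 3.00 for Pbk. The array-wide share of genes called higher was 19.0% in KD cells and 10.1% in control cells, and the median over all genes was 0.01 in KD and -0.01 in control cells. Adjusted p of the members ran from 4.4e-07 to 8.54e-05 in KD cells and from 7.45e-06 to 0.00332 in control cells. In each line, every day 7 array of every member lay above every day 0 array (41 of 41 members), which held for 21.3% of all genes in KD cells and 14.2% in control cells. These are bulk RNA values, in which a larger share of dividing cells and more RNA per cell cannot be told apart.

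**Figure D1:**
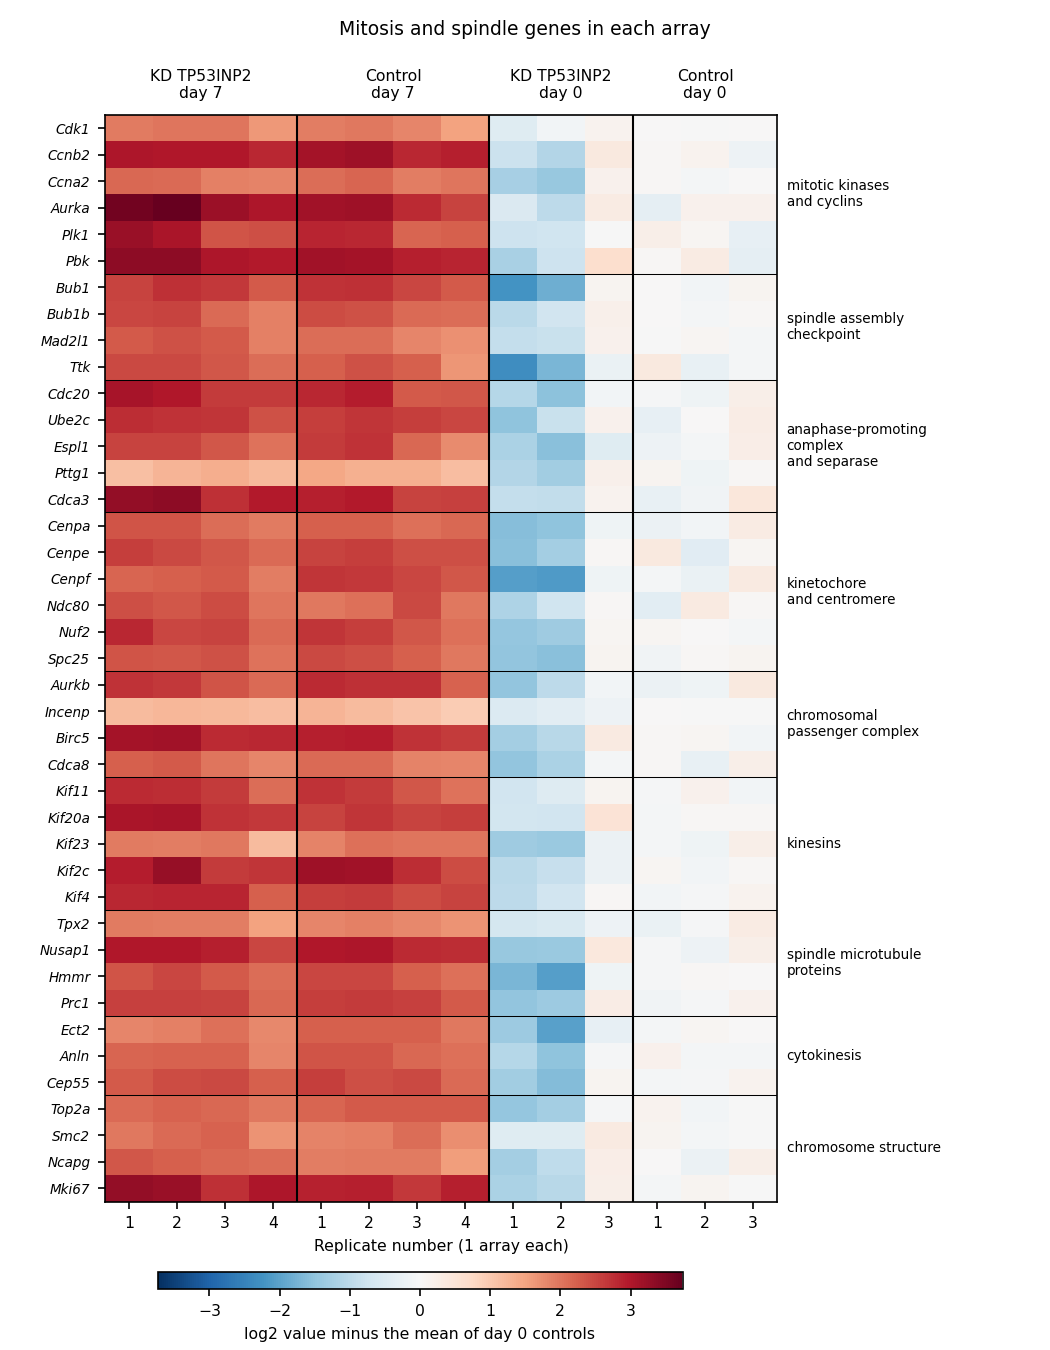
The 41 measured mitosis and spindle genes (rows, grouped by role) in each of the 14 arrays (columns), coloured by the log2 value minus the mean of the 3 day 0 controls. Day 7 arrays of both lines are higher throughout, day 7 KD and control columns look alike, and at day 0 KD replicates 1 and 2 are lower than the controls while KD replicate 3 mostly is not.

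The 6 mitotic kinases and cyclins rose by a median of 3.37 in KD and 2.72 in control cells on the log2 scale. Cdk1, the kinase that drives entry into mitosis, lay at 11.91, 11.98, 11.99 and 11.62 in KD cells at day 7 and at 11.90, 11.95, 11.81 and 11.48 in controls of that day. At day 0, Cdk1 lay at 9.54, 9.88 and 10.12 in KD cells and at 9.99, 9.97 and 9.99 in control cells. No day 7 array came near a day 0 array, and the KD arrays lay on both sides of the tightly grouped day 0 controls. Cdk1 was 4.08-fold higher at day 7 than at day 0 in KD cells and 3.49-fold higher in control cells. Ccnb2, its cyclin partner, lay at 10.47, 10.44, 10.47 and 10.29 in KD cells at day 7, against 10.57, 10.62, 10.29 and 10.36 in control cells. At day 0, Ccnb2 lay at 6.65, 6.36 and 7.83 in KD cells, against 7.51, 7.60 and 7.29 in control cells. KD replicate 3 of day 0 lay above the controls and the other KD arrays below them. Ccnb2 was 11.1-fold higher at day 7 in KD and 7.98-fold higher in control cells. Ccna2, the cyclin of S phase and early mitosis, was 7.12-fold higher in KD and 4.12-fold higher in control cells. The spindle pole kinase Aurka was 13.9-fold higher in KD and 7.52-fold in control cells.

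Pbk, a kinase active in mitosis, lay at 11.73, 11.71, 11.41 and 11.34 in KD cells at day 7, against 11.52, 11.48, 11.29 and 11.22 in control cells. At day 0, Pbk lay at 7.15, 7.61 and 9.01 in KD cells, against 8.41, 8.68 and 8.05 in control cells. Pbk had the steepest rise of the members in control cells, and its KD replicate 3 of day 0 lay above the controls. It was 12.3-fold higher in KD and 8.0-fold in control cells. Plk1, which acts at centrosomes, kinetochores and the midbody, was 9.67-fold higher in KD and 5.74-fold in control cells.

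The 4 genes of the spindle assembly checkpoint, which delays anaphase until all chromosomes are attached, rose by a median of 3.26 in KD and 2.19 in control cells on the log2 scale. Bub1, a checkpoint kinase, lay at 10.39, 10.58, 10.50 and 10.15 in KD cells at day 7, against 10.57, 10.57, 10.34 and 10.14 in control cells. At day 0, Bub1 lay at 5.62, 6.04 and 7.96 in KD cells, against 7.86, 7.76 and 7.94 in control cells. The day 7 groups overlapped, and at day 0 KD replicates 1 and 2 lay far under the controls while KD replicate 3 lay above them. Bub1 had the largest fold change in KD cells, 14.6-fold, against 5.87-fold in control cells. Ttk, the kinase at the head of the checkpoint, lay at 9.54, 9.55, 9.41 and 9.16 in KD cells at day 7, against 9.31, 9.46, 9.34 and 8.74 in control cells. At day 0, Ttk lay at 4.77, 5.39 and 6.85 in KD cells, against 7.44, 6.80 and 7.02 in control cells. Only KD replicate 3 reached the range of the controls. Mad2l1, a checkpoint protein, lay at 10.79, 10.90, 10.81 and 10.41 in KD cells at day 7, against 10.60, 10.60, 10.35 and 10.22 in control cells. At day 0, Mad2l1 lay at 7.62, 7.69 and 8.66 in KD cells, against 8.50, 8.60 and 8.44 in control cells. KD replicate 3 of day 0 lay just above the controls. Mad2l1 and Bub1b, whose proteins bind and hold back Cdc20, rose 6.67-fold and 6.84-fold in KD cells, against 3.81-fold and 4.78-fold in control cells.

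Genes of anaphase onset rose by a median of 3.41 in KD and 2.59 in control cells. Cdc20, the activator of the anaphase-promoting complex, lay at 11.73, 11.64, 11.24 and 11.24 in KD cells at day 7, against 11.46, 11.56, 10.94 and 10.95 in control cells. At day 0, Cdc20 lay at 7.58, 7.09 and 8.52 in KD cells, against 8.58, 8.47 and 8.85 in control cells. Replicates 1 and 2 lay above replicates 3 and 4 in both lines at day 7. Ube2c, which supplies ubiquitin to the complex, was 10.2-fold higher at day 7 than at day 0 in KD and 6.02-fold in control cells. Espl1, the separase that cleaves cohesin, and Pttg1, the securin that inhibits it, moved by different amounts. Espl1 lay at 9.41, 9.41, 9.21 and 8.90 in KD cells at day 7, against 9.49, 9.59, 9.04 and 8.66 in control cells. At day 0, Espl1 lay at 5.71, 5.32 and 6.44 in KD cells, against 6.68, 6.82 and 7.14 in control cells. All 3 KD arrays of day 0 lay under the controls. Pttg1 lay at 11.84, 11.96, 12.06 and 11.93 in KD cells at day 7, against 12.15, 12.02, 12.03 and 11.87 in control cells. At day 0, Pttg1 lay at 9.60, 9.41 and 10.91 in KD cells, against 10.81, 10.55 and 10.75 in control cells. Here KD replicate 3 of day 0 lay above the controls. Espl1 was 10.7-fold higher in KD and 4.98-fold in control cells, whereas Pttg1 was 3.93-fold higher in KD and 2.48-fold in control cells. Cdca3, a trigger of mitotic entry and target of the complex, lay at 11.59, 11.67, 11.05 and 11.27 in KD cells at day 7, against 11.22, 11.27, 10.85 and 10.86 in control cells. At day 0, Cdca3 lay at 7.41, 7.38 and 8.44 in KD cells, against 8.03, 8.17 and 8.74 in control cells. The groups overlapped at day 7, and at day 0 only KD replicate 3 reached the controls. Cdca3 rose 12.6-fold in KD and 6.68-fold in control cells.

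The 6 kinetochore and centromere genes rose within a narrow range, from 2.91 to 3.61 in KD cells and from 2.13 to 2.53 in control cells on the log2 scale. Cenpa, the histone H3 variant that marks centromeres, was 9.70-fold higher at day 7 in KD and 4.50-fold in control cells. Ndc80, Nuf2 and Spc25 belong to the complex that grips microtubule ends. Their rises were 7.54-fold, 10.4-fold and 9.51-fold in KD cells, against 4.37-fold, 5.31-fold and 4.84-fold in control cells. The kinetochore motor Cenpe rose 9.84-fold in KD and 5.61-fold in control cells. Cenpf, a large protein of the outer kinetochore, lay at 10.38, 10.41, 10.48 and 10.12 in KD cells at day 7, against 10.87, 10.83, 10.68 and 10.50 in control cells. At day 0, Cenpf lay at 6.12, 6.07 and 8.03 in KD cells, against 8.12, 7.93 and 8.53 in control cells. It was the member whose 4 KD arrays all lay under all 4 control arrays at day 7, and at day 0 only KD replicate 3 reached the controls.

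The chromosomal passenger complex corrects faulty attachments and steers cytokinesis. Its kinase Aurkb rose 9.86-fold in KD and 6.12-fold in control cells, Birc5 (survivin) 12.4-fold in KD and 6.91-fold in control cells, and Cdca8 (borealin) 8.0-fold in KD and 3.96-fold in control cells. Its scaffold Incenp had the smallest rise of all members in each line. Incenp lay at 13.20, 13.24, 13.21 and 13.16 in KD cells at day 7, against 13.27, 13.19, 13.08 and 12.96 in control cells. At day 0, Incenp lay at 11.51, 11.61 and 11.81 in KD cells, against 12.03, 11.99 and 12.00 in control cells. The arrays of each group lay close together, and the smallest rise had the smallest adjusted p in KD cells (1.56 ± 0.09, SE, adjusted p = 4.4e-07, limma). All 3 KD arrays of day 0 lay under all 3 controls for this gene.

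The 5 mitotic kinesins rose by a median of 3.16 in KD and 2.54 in control cells on the log2 scale. Kif2c, which shortens microtubules at kinetochores, lay at 9.09, 9.42, 8.79 and 8.85 in KD cells at day 7, against 9.34, 9.31, 8.91 and 8.59 in control cells. At day 0, Kif2c lay at 5.17, 5.31 and 5.94 in KD cells, against 6.23, 6.07 and 6.21 in control cells. Its arrays parted cleanly by day, and it had the smallest adjusted p of the members in control cells (2.87 ± 0.22, SE, adjusted p = 7.45e-06, limma). Kif11, the motor that pushes spindle poles apart, rose 7.67-fold in KD and 5.37-fold in control cells.

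Kif4, a chromosome-bound motor, lay at 8.16, 8.19, 8.17 and 7.57 in KD cells at day 7, against 7.92, 7.93, 7.78 and 7.84 in control cells. At day 0, Kif4 lay at 4.34, 4.61 and 5.38 in KD cells, against 5.23, 5.28 and 5.47 in control cells. KD replicate 4 stood low at day 7 and KD replicate 3 of day 0 lay among the controls. Kif4 rose 9.48-fold in KD and 5.82-fold in control cells. Kif20a, a motor of the spindle midzone, lay at 9.80, 9.82, 9.44 and 9.40 in KD cells at day 7, against 9.27, 9.43, 9.29 and 9.35 in control cells. At day 0, Kif20a lay at 6.05, 6.04 and 7.27 in KD cells, against 6.67, 6.80 and 6.78 in control cells. At day 0 KD replicate 3 lay above the controls and the other KD arrays below. Kif23, another midzone motor, lay at 10.02, 10.01, 10.06 and 9.28 in KD cells at day 7, against 9.95, 10.16, 10.08 and 10.08 in control cells. At day 0, Kif23 lay at 6.78, 6.71 and 7.87 in KD cells, against 8.03, 7.94 and 8.31 in control cells. KD replicate 4 stood low at day 7, and all KD arrays of day 0 lay below the controls. Kif20a rose 8.97-fold in KD and 5.99-fold in control cells and Kif23 rose 6.61-fold in KD and 3.94-fold in control cells. The probe sets read for Kif2c, Incenp and Cdc20 are of the type that can bind related transcripts, and those read for Pbk, Bub1b, Pttg1, Aurkb, Cdca8 and Prc1 are of the type shared by several transcripts.

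The 4 spindle microtubule proteins differed in how far they rose. Tpx2, which activates Aurora A on the spindle, lay at 11.54, 11.52, 11.51 and 11.12 in KD cells at day 7, against 11.42, 11.49, 11.40 and 11.30 in control cells. At day 0, Tpx2 lay at 8.93, 9.02 and 9.42 in KD cells, against 9.35, 9.56 and 9.91 in control cells. KD replicate 3 of day 0 lay among the controls. Tpx2 rose 4.92-fold in KD and 3.48-fold in control cells. Nusap1, a microtubule-bundling protein, rose 12.6-fold in KD and 7.41-fold in control cells, and Prc1, which bundles midzone microtubules, rose 9.86-fold in KD and 5.69-fold in control cells. Hmmr, a spindle and hyaluronan-binding protein, lay at 11.98, 12.14, 11.93 and 11.71 in KD cells at day 7, against 12.12, 12.12, 11.87 and 11.69 in control cells. At day 0, Hmmr lay at 7.92, 7.58 and 9.48 in KD cells, against 9.58, 9.67 and 9.66 in control cells. The day 7 groups overlapped almost fully, while at day 0 all KD arrays lay under the controls, replicate 3 only just.

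Ect2, which activates RhoA at the cell equator, lay at 10.28, 10.36, 10.51 and 10.27 in KD cells at day 7, against 10.70, 10.71, 10.71 and 10.43 in control cells. At day 0, Ect2 lay at 7.11, 6.43 and 8.16 in KD cells, against 8.38, 8.53 and 8.47 in control cells. All KD arrays of day 0 lay under the controls, and at day 7 the KD arrays lay at or under the lower end of the controls, with only KD replicate 3 above the lowest of them. The cytokinesis genes Ect2, Anln and Cep55 rose by 3.12, 2.97 and 3.30 in KD cells, against 2.18, 2.23 and 2.40 in control cells on the log2 scale.

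Among the genes of chromosome structure, Top2a, the enzyme that untangles sister DNA, lay at 10.88, 10.97, 10.93 and 10.75 in KD cells at day 7, against 10.95, 11.07, 11.06 and 11.05 in control cells. At day 0, Top2a lay at 7.34, 7.51 and 8.72 in KD cells, against 8.90, 8.67 and 8.75 in control cells. Day 7 arrays were all higher than day 0 arrays, and at day 0 KD replicates 1 and 2 lay under the controls while KD replicate 3 lay among them. Top2a was 8.16-fold higher at day 7 in KD and 4.78-fold in control cells. Mki67, which coats mitotic chromosomes, rose 13.3-fold in KD and 7.15-fold in control cells. Smc2, a condensin subunit, lay at 10.27, 10.41, 10.49 and 9.96 in KD cells at day 7, against 10.16, 10.17, 10.38 and 10.03 in control cells. At day 0, Smc2 lay at 7.83, 7.84 and 8.63 in KD cells, against 8.38, 8.23 and 8.27 in control cells. KD replicate 3 of day 0 lay above the controls. Smc2 and its partner Ncapg rose less, 4.54-fold and 7.24-fold in KD cells and 3.71-fold and 3.58-fold in control cells.

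**Figure D2:**
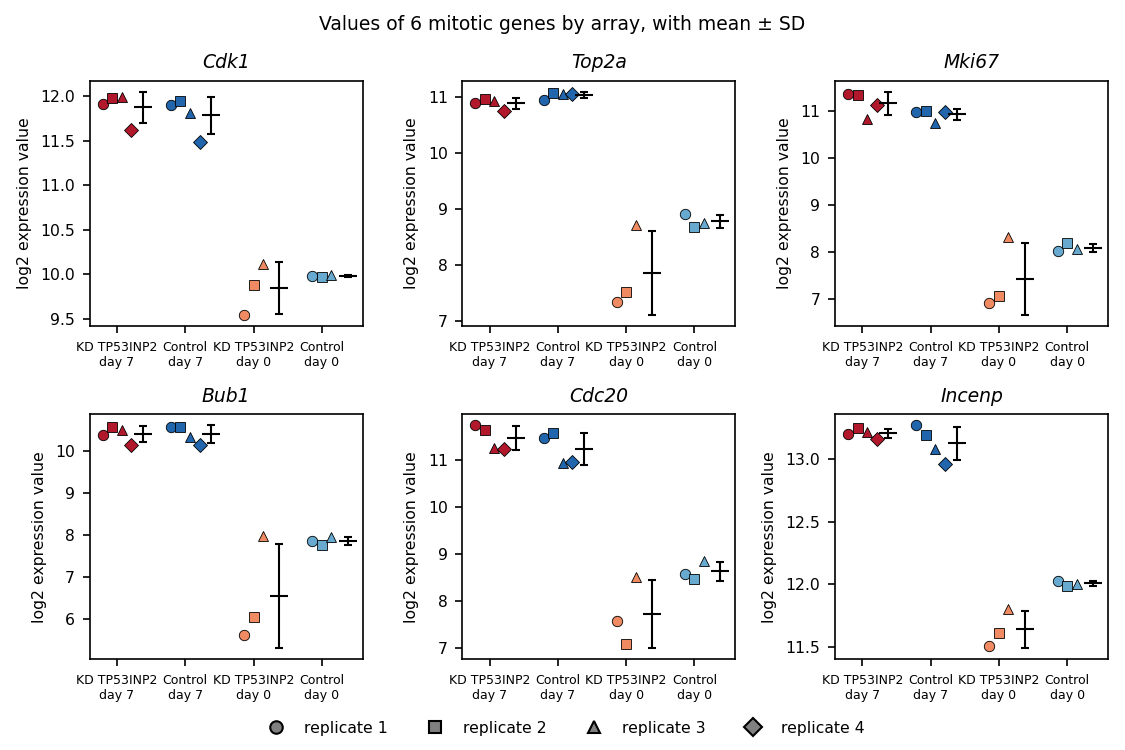
Log2 expression values of Cdk1, Top2a, Mki67, Bub1, Cdc20 and Incenp in each array, by group, with replicate numbers as symbols and the mean ± SD of each group as a black bar (n = 4 at day 7, n = 3 at day 0). KD replicate 3 of day 0 (orange triangle) lies at or near the day 0 controls in every panel but that of Incenp, where it lies between them and the other KD arrays.

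**Figure D3:**
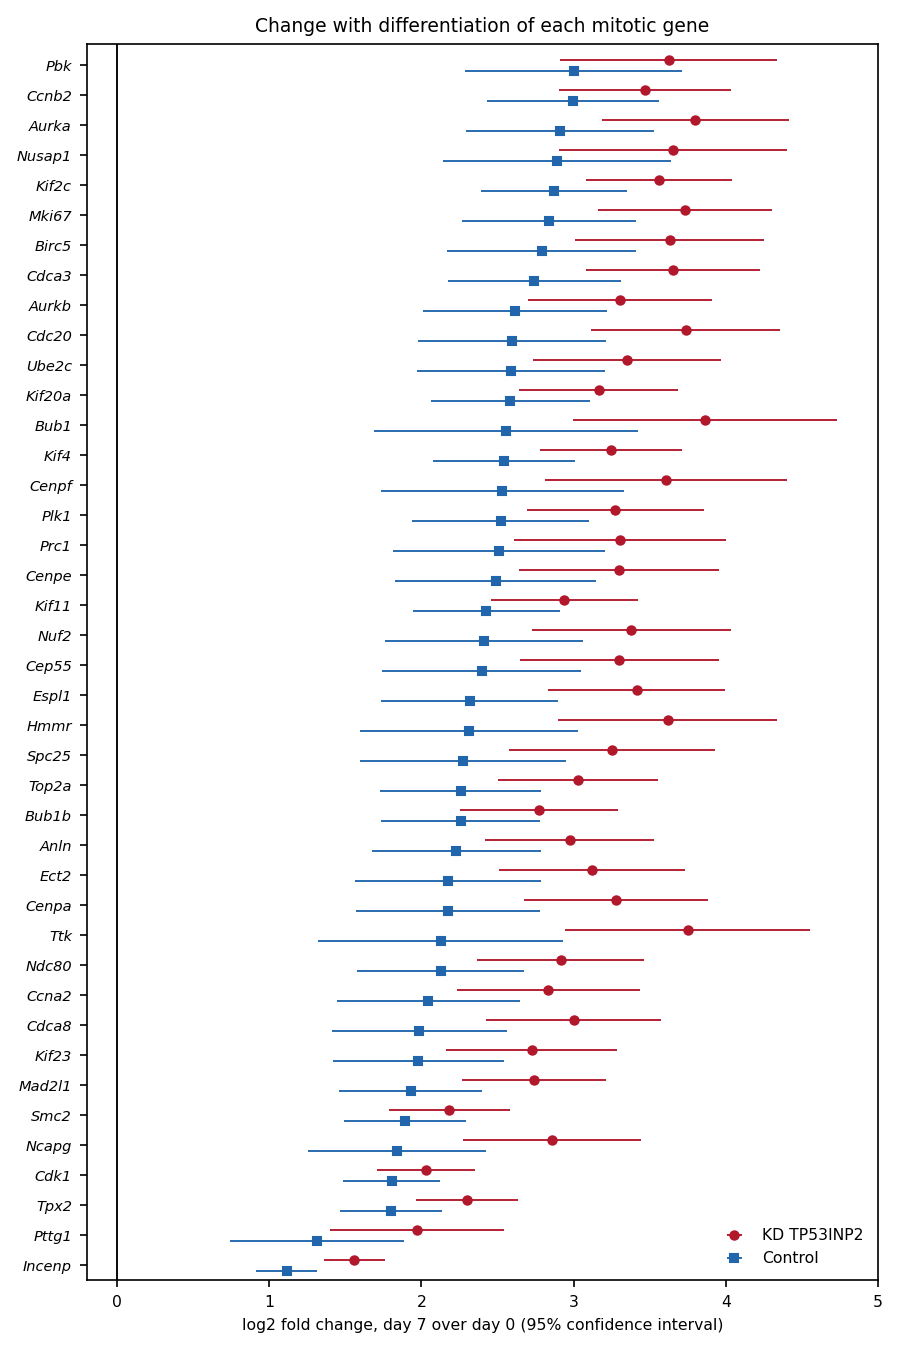
Log2 fold change, day 7 over day 0, of each of the 41 genes in KD TP53INP2 (circles) and control cells (squares), with 95% confidence intervals from limma. Every interval lies above 0, the lowest bound being 0.74 (Pttg1 in control cells), and the KD estimate lies to the right of the control estimate for each gene.

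Other probe sets of the members gave smaller rises in the same direction for most. For 27 members the array holds 50 further single-symbol probe sets, of which 39 were called higher at day 7 in KD cells and 37 in control cells, and 0 were called lower. Their median log2 fold change was 2.08 in KD and 1.77 in control cells, against 3.28 and 2.40 for the probe sets read for the members. Those below 0 in control cells were 1 probe set each of Cdca3 (-0.01) and Kif23 (-0.20), whose mean values over the 14 arrays were 2.27 and 2.12.

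At day 0, before differentiation, the KD estimate lay below the control for 41 of 41 members, yet 0 passed the test. The median log2 difference was -0.73, against -0.05 over all genes, and the range ran from -1.45 for Cenpf to -0.14 for Cdk1. Over all genes 1.8% were called in either direction and 1.34% were called lower. The smallest adjusted p of a member was 0.0622 (Ect2, -1.23 ± 0.30, SE), and 30 of 41 had an unadjusted p under 0.05. The next smallest were those of Hmmr (-1.31 ± 0.35, adjusted p = 0.0847) and Incenp (-0.36 ± 0.10, adjusted p = 0.0847). The 3 lowest estimates were those of Cenpf, Ttk and Bub1 (-1.45 ± 0.39, -1.42 ± 0.40 and -1.31 ± 0.43), with adjusted p of 0.0866, 0.0976 and 0.158. The nearest to 0 were Cdk1 (-0.14 ± 0.16), Smc2 (-0.19 ± 0.20) and Kif20a (-0.30 ± 0.26), with adjusted p from 0.655 to 0.76. Of the 50 further probe sets of the members 37 lay below 0 and 13 above at day 0, with a median of -0.29 and 0 called.

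The 3 KD arrays of day 0 did not behave alike. Averaged over the 41 members, the KD arrays lay at 7.04, 7.10 and 8.31, against 8.21, 8.20 and 8.32 in the controls. In KD replicates 1 and 2 every member (41 of 41) lay below every control array, which held for 24.2% of all genes. In KD replicate 3, 18 members lay within the range of the controls, 17 above it and 6 below it. The 6 were Espl1, Incenp, Kif23, Kif2c, Hmmr and Ect2, and they are also the members whose day 0 groups did not overlap (6 of 41, against 15.7% of all genes lower without overlap). Taken against the control of the same number, the median member difference was -1.22, -1.13 and 0.02 in replicates 1, 2 and 3, while over all genes these medians lay between -0.07 and -0.04.

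**Figure D4:**
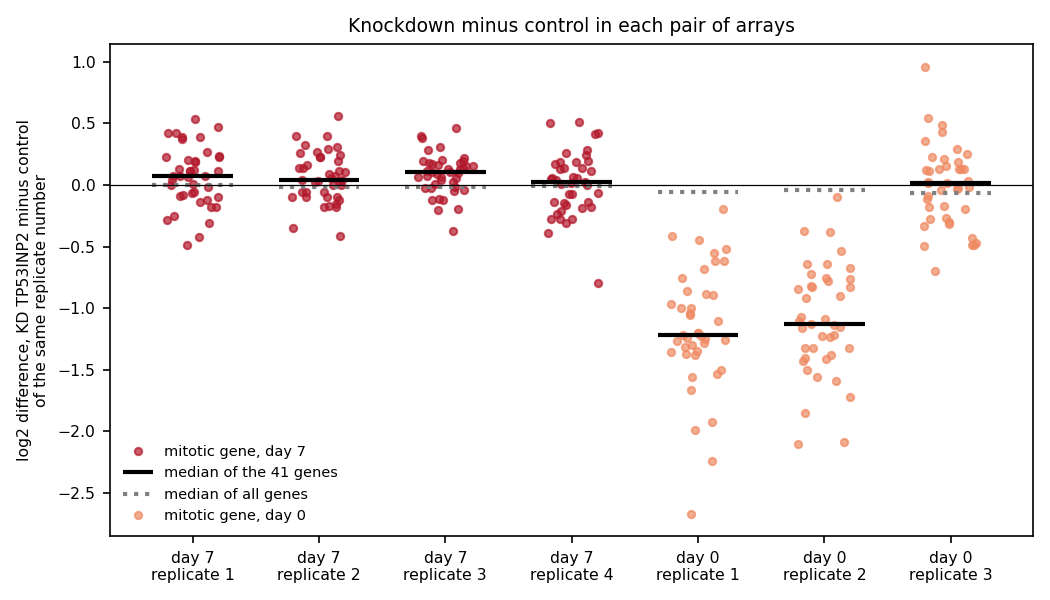
Log2 difference, KD TP53INP2 minus the control of the same replicate number, for each of the 41 genes (points) in the 4 pairs of day 7 and the 3 pairs of day 0, with the median of the genes (black line) and of all genes (dotted line). The genes scatter around 0 in the 4 day 7 pairs and in day 0 replicate 3, and lie below 0 in day 0 replicates 1 and 2, with medians of -1.22 and -1.13.

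Leaving out KD replicate 3 moved the day 0 count to 34 of 41 members called lower, with a median of -1.19, while 2.28% of all genes were then called lower. Leaving out any other single array gave 0 calls among the members at day 0. KD replicate 3 stands apart in these same member values, so the adjusted p without it are not separate support. Without that array Cenpf stood at -2.09 ± 0.17 (SE, adjusted p = 0.000248, limma), Bub1 at -2.02 ± 0.17 (adjusted p = 0.000248) and Top2a at -1.35 ± 0.10 (adjusted p = 0.000239). The 7 members that did not pass then were Cdk1, Aurka, Plk1, Cdca3, Kif11, Tpx2 and Smc2. Of these Cdk1 was nearest to 0, at -0.27 ± 0.16 (adjusted p = 0.44). With the dimmest 40% of genes left out, 2 members were called lower with all arrays in (3.33% of the genes then tested). Without both replicate 3 arrays of day 0, 26 members were called lower (1.41% of all genes). The remaining KD arrays are replicates 1 and 2, which lay close together, and with these averaged into 1 sample beside replicate 3 the count was 0 (0.132% of all genes in either direction) and the median -0.57. The day 0 difference therefore rests on which KD arrays are counted.

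Other measurements also differed among the day 0 arrays. The array control probe sets for beta-actin, read at the 3′ and 5′ ends of the transcript, differed by 2.98 ± 0.25 in KD and 3.54 ± 0.22 in control cells (SD, n = 3 each), with no overlap between the groups. By array the difference was 3.23, 2.97 and 2.74 in KD and 3.76, 3.54 and 3.32 in control cells, with KD replicate 3 farthest from the controls. Replicate 3 had the lowest difference in every group, also at day 7 (2.70 in KD and 2.82 in control cells), so the low value is not particular to this array. With this difference as a covariate 3 members were called lower (Ndc80, Kif23 and Tpx2), against 2.25% of all genes. The adipocyte marker Adipoq lay at 7.29, 7.48 and 2.30 in KD cells, against 5.73, 4.49 and 3.15 in control cells. KD replicate 3 thus had the lowest value of the 6 arrays and control replicate 3 the next lowest. The 8 adipocyte markers together did not set that pair apart. Against the control of the same number their median was 0.35, 0.44 and 0.40 in replicates 1, 2 and 3, with 6 above 0 and 2 below in each. Over the 8 adipocyte markers, the median KD estimate was 0.43 with 0 called. Without KD replicate 3 it was 0.54, and Adipoq was called higher (2.93 ± 0.70, SE, adjusted p = 0.0444, limma) in the same fit that called 34 members lower. The part of RNA quality and of the degree of differentiation in the mitotic values was not tested.

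At day 7 the KD and control cells did not differ by the test in any member (0 of 41 called, against 6.58% of all genes, and 0 with an unadjusted p under 0.05). The median log2 difference was 0.04, with 24 members above 0 and 17 below, against a median of -0.02 over all genes. The 95% confidence interval lay within a doubling or halving (log2 difference between -1 and 1) for 39 of 41 members, and within 0.5 on either side of 0 for 6. These tests and intervals use a spread per gene shared by all 4 groups, so the disagreeing KD arrays of day 0 enter it. Averages over the members had an SD of 0.18 in KD and 0.156 in control arrays at day 7. At day 0 this SD was 0.715 in KD and 0.067 in control arrays. With day 7 fitted alone, 0 members were called (1.83% of all genes, smallest adjusted p = 0.116, limma). Averaged over the members, the arrays lay at 10.76, 10.77, 10.61 and 10.38 in KD cells, against 10.69, 10.71, 10.53 and 10.38 in control cells. The 4 pairs had median differences between 0.03 and 0.10.

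The members farthest from 0 at day 7 were Aurka (0.48 ± 0.26, SE, adjusted p = 0.301, limma), Ncapg (0.36 ± 0.25, adjusted p = 0.435) and Cdca3 (0.35 ± 0.24, adjusted p = 0.44) on the upper side. On the lower side stood Cenpf (-0.37 ± 0.34, adjusted p = 0.57), Ect2 (-0.28 ± 0.26, adjusted p = 0.574) and Kif23 (-0.22 ± 0.24, adjusted p = 0.635). Aurka lay at 10.27, 10.39, 9.85 and 9.67 in KD cells, against 9.79, 9.83, 9.45 and 9.17 in control cells. At day 0, Aurka lay at 6.12, 5.66 and 6.95 in KD cells, against 6.31, 6.82 and 6.82 in control cells. At day 7 the groups overlapped, but each KD array lay above the control of its number. Ncapg lay at 12.07, 11.99, 11.90 and 11.84 in KD cells, against 11.65, 11.70, 11.68 and 11.33 in control cells. At day 0, Ncapg lay at 8.48, 8.81 and 9.99 in KD cells, against 9.76, 9.53 and 9.96 in control cells. At day 7 it was the 1 member whose KD arrays all lay above the controls (6.02% of all genes), as Cenpf was the 1 member whose KD arrays all lay below (6.96%). With each day fitted alone and the replicate number as a block, 3 members were called (10.3% of all genes): Aurka (0.48, adjusted p = 0.0246) and Cdca3 (0.35, adjusted p = 0.0498) higher and Cenpf (-0.37, adjusted p = 0.0483) lower in KD cells. With the block in the fit of all 14 arrays 0 were called (10.2% of all genes).

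Whether the KD difference itself changed between the days was tested as day 7 minus day 0. The estimate was above 0 for 41 of 41 members, with a median of 0.79 (0.04 over all genes), and 0 passed the test (0.022% of all genes). The same quantity is the excess of the rise in KD cells over the rise in control cells, so the larger rises in KD cells are not shown to differ from those in control cells. The smallest adjusted p was that of Incenp (0.44 ± 0.13, SE, adjusted p = 0.185, limma), followed by Ttk (1.62 ± 0.53, adjusted p = 0.227) and Espl1 (1.10 ± 0.38, adjusted p = 0.249), and 21 members had an unadjusted p under 0.05. Without KD replicate 3 of day 0, 25 members were called (0.792% of all genes called higher), with a median of 1.24. The smallest adjusted p, 0.00403, was shared by Bub1 (2.02 ± 0.22), Hmmr (1.88 ± 0.20) and Top2a (1.20 ± 0.13), and the largest estimate was that of Ttk (2.21, adjusted p = 0.0125). Without both replicate 3 arrays of day 0, 20 members were called (0.379% of all genes called higher). KD replicate 3 of day 0 stands apart in these same member values, so the calls without it are not separate support.

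Genes around the same pathway moved by different amounts with differentiation. Over all genes 19.0% were called higher in KD and 10.1% in control cells, and 16.8% and 12.8% were called lower. Of 64 other mitotic genes, 63 rose in KD cells (median 2.68) and 60 in control cells (median 2.01), led by Ska1 (4.05) and Nek2 (4.00) in KD cells and by Aspm (2.75) and Kif18b (2.70) in control cells. The kinesin gene Kif15 did not pass in either line (0.08 in KD and 0.78 in control cells). Of 25 DNA replication genes, 25 rose in KD cells (median 1.97) and 24 in control cells (median 1.34), with Cdc6, which loads the replicative helicase, at 4.12 in KD and 2.89 in control cells. In contrast, of 21 genes of the anaphase-promoting complex and cohesin, some of them regulators and not core subunits, 5 rose and 1 fell in KD cells. In control cells 3 rose and 1 fell, and the medians were 0.00 in KD and 0.06 in control cells. The counts that rose lay near the shares over all genes. Those that rose in both lines included Fzr1, the activator of the complex in G1 (1.07 in KD and 0.57 in control cells), and the cohesin subunits Rad21 (0.57 and 0.49) and Smc3 (0.51 and 0.29), while the cohesin loader Nipbl fell by 0.52 in KD and fell by 0.33 in control cells.

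Of 16 transcriptional regulators of the cell cycle, 12 rose and 1 fell in KD cells and 11 rose in control cells. Over all genes 19.0% were called higher in KD and 10.1% in control cells. Foxm1 rose by 2.78 ± 0.26 (SE, adjusted p = 5.48e-06, limma) in KD and 1.87 ± 0.26 (adjusted p = 0.000247) in control cells. Mybl2, which encodes B-Myb, rose by 3.13 ± 0.32 (adjusted p = 9.81e-06) in KD and 1.88 ± 0.32 (adjusted p = 0.00102) in control cells. The largest rises were those of E2f7 (3.52 in KD and 2.36 in control cells), E2f2 and E2f8. Rbl1, the gene of p107, rose by 1.78 in KD and 1.28 in control cells. Rbl2, the gene of p130, fell by 0.45 ± 0.11 (adjusted p = 0.00553) in KD cells and stood at -0.27 ± 0.11 (adjusted p = 0.0942) in control cells.

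**Figure D5:**
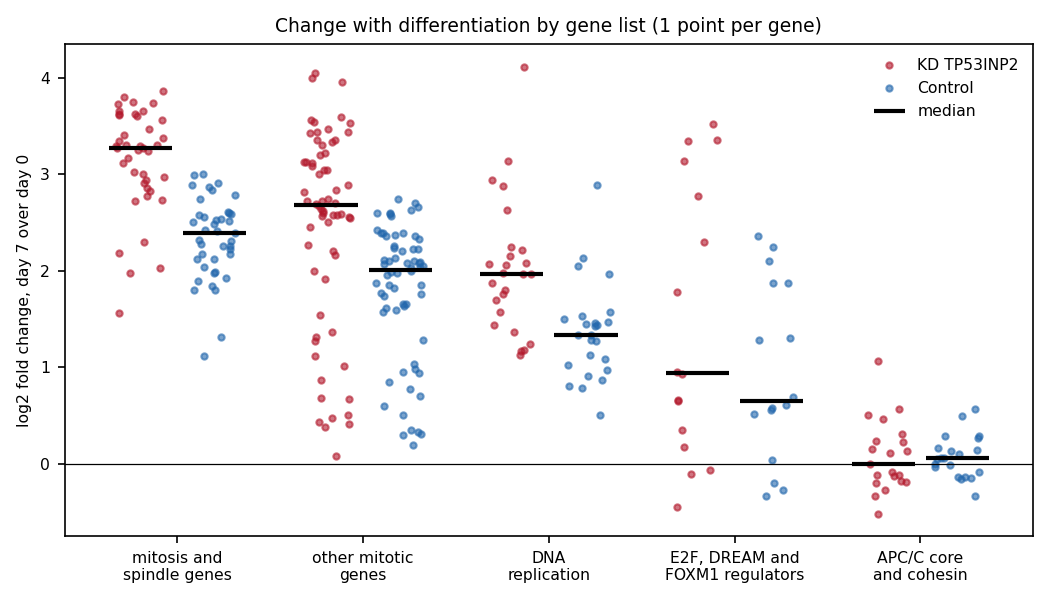
Log2 fold change, day 7 over day 0, of each gene (points) of 5 lists in KD TP53INP2 and control cells, with the median as a black line. The medians of the mitosis and spindle genes are 3.28 in KD and 2.40 in control cells. Those of the anaphase-promoting complex and cohesin genes (labelled APC/C core and cohesin) are 0.00 and 0.06.

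Between the lines, the other lists gave few calls. Over all genes 1.34% were called lower at day 0, and 2.28% without KD replicate 3. At day 0, 4 of the 64 other mitotic genes were called lower in KD cells, among them Cenpi (-1.13 ± 0.26, SE, adjusted p = 0.0499, limma), Cdc25c (-1.04 ± 0.20, adjusted p = 0.022) and Plk4 (-0.86 ± 0.19, adjusted p = 0.0434), and 31 were without KD replicate 3. Of the DNA replication genes 1 was called lower (Rfc4, -0.66 ± 0.14, adjusted p = 0.0355), and 7 were without that array. With day 0 fitted alone and the replicate number as a block, 0 genes of either list were called (0.671% of all genes), as with replicates 1 and 2 averaged (0.132%). The block in the fit of all arrays gave 7 and 1 lower (2.26% of all genes called lower). Of the regulators 0 were called, and E2f7, E2f8 and Rbl1 were called lower without KD replicate 3. Of the anaphase-promoting complex and cohesin genes 0 were called with or without it. In KD replicates 1 and 2, 47 of the 64 other mitotic genes (73.4%) and 20 of the 25 replication genes (80.0%) lay below every control, against 5 of the 21 complex and cohesin genes (23.8%). At day 7, 3.01% of all genes were called higher and 3.57% lower. Of the 64 other mitotic genes 1 was called in each direction, below those shares. Kif14, a cytokinesis kinesin, was called higher (0.88 ± 0.11, adjusted p = 0.00132) and the condensin gene Smc4 lower (-0.30 ± 0.08, adjusted p = 0.0479) in KD cells. Of the complex and cohesin genes Anapc7 (0.38) and Anapc4 (0.31) were called higher and Anapc2 (-0.48) and Pds5b (-0.26) lower. The call of Kif14 held with the block within the day, with replicates 1 and 2 averaged and without KD replicate 3 of day 0. That of Smc4 was lost in each of these (adjusted p = 0.0647, 0.254 and 0.0506). Of the 4 complex and cohesin calls, those of Anapc7 and Anapc2 held with the block within the day and those of Anapc4 and Anapc2 without KD replicate 3 of day 0, while 0 held with replicates 1 and 2 averaged. Of the replication genes 0 were called at day 7, the farthest from 0 being Ccne1 (0.71 ± 0.20, adjusted p = 0.0546). Their median was 0.35, with 23 of 25 above 0. With day 7 fitted alone and the replicate number as a block, 7 were called higher (5.17% of all genes): Ccne1, Gins1, Gins2, Mcm7, Rfc3, Rfc5 and Rrm1. With the block in the fit of all arrays 2 were (5.14% of all genes), Gins2 and Mcm7. Without KD replicate 3 of day 0 Ccne1 and Rfc3 were (3.08% of all genes).

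Promoter elements differed among these lists. A CHR stood in 64.2% of 53 windows of the other mitotic genes, in 23.8% of 21 windows of replication genes and in 11.8% of 17 windows of the complex and cohesin genes, beside the 82.9% of the members. An E2F element stood in 42.9% of the replication windows and in 15.1% of those of the other mitotic genes, beside 5.71% of the members'. These shares describe letters in the windows only.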

How the data were processed

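Total RNA from 14 samples was measured on 1-colour arrays. Per the submitters' processing notes the authors used RMA and affy (their versions were not stated in the sources at hand); the deposited values are log2 expression values, with the log base taken from their range (1.13 to 14.37). No detection calls were used. Precision is limited by how many arrays each group has and by the spread per gene, which all groups share. Of 45101 probe sets, 34945 carry 1 gene symbol in the platform annotation, 932 several and 9160 none; the brightest single-symbol probe set stood for each of 18193 genes, 18031 of which are in the RefSeq table. One limma 3.58.1 model (R 4.3.3, with moderated variances on 12.6 degrees of freedom) held a mean per group over all arrays. Errors of fold changes are its SE, and adjusted p are Benjamini-Hochberg values over all genes with a threshold of 0.05. It was tested on simulated data. Arrays of one replicate number deviated together (correlations from 0.225 to 0.321 at day 0 and from 0.253 to 0.736 at day 7). These and the next correlations were taken without the dimmest 40% of genes. At day 7 KD replicate 1 correlated at 0.611 with control 2 and at 0.524 with control 1. KD replicate 2 correlated at 0.551 with control 1 and at 0.592 with control 2. At day 0 these crossed correlations were lower, 0.133 and 0.024. The values thus do not show which of replicates 1 and 2 belong together at day 7. The numbers were taken to pair the arrays, as an assumption, and a replicate block was fitted as an alternative. Other alternatives changed the probe set, the dim gene filter, the normalization, an RNA quality covariate and the arrays included. Members and lists were chosen with earlier results of these data known. Values in every array are given for Cdk1, Top2a and, by rule, the 3 members of highest fold change, lowest fold change and smallest adjusted p in each comparison; Cdc20 was added after its values were seen. Of the other lists, up to 3 called genes of largest fold change in each direction are named, and the farthest gene that did not pass; Foxm1, Mybl2, Rbl1 and the markers' values were added likewise.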

Additional observations from a re-analysis of the deposited data

Results flagged for a closer look

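Dixon's test of a lone array was run on 84 groups of 4 day 7 arrays (41 members and their mean, in both lines). In 13 of the groups an array lay far from the other 3. A single group passes by chance about 1 time in 20. The groups share their arrays and are not independent, so their count cannot be set against that rate. Replicate 4 was the lone low array in 10 of the 13. In KD cells it stood low for Ccnb2 (10.29), Kif23 (9.28), Kif4 (7.57), Tpx2 (11.12), Prc1 (10.85) and Anln (9.88). In control cells it stood low for Aurkb (9.08), Prc1 (10.98), Ect2 (10.43) and Ncapg (11.33). The other lone control arrays were replicate 1 for Top2a (10.95, low) and replicate 3 for Mki67 (10.74, low) and Ndc80 (8.45, high). Groups of 3 arrays, and so all day 0 arrays, were not examined in this way.

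For 3 members the KD minus control difference was above 0 in every pair of day 7 and below 0 in every pair of day 0. The estimated difference between the days was 1.62 for Ttk (adjusted p = 0.227, limma), 1.14 for Cdc20 (adjusted p = 0.26) and 0.91 for Cdca3 (adjusted p = 0.313), so none passed the test.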

How the results depend on the processing

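The count of 41 of 41 members higher at day 7 held in KD and in control cells under every alternative run; the control median was 2.18 with the mean over probe sets and 2.26 with the beta-actin covariate. KD against control at day 0 gave 26 members lower without replicate 3 of both groups, 2 without the dimmest 40% of genes (Incenp and Ect2; 3.33% of the genes then tested) and 3 with the beta-actin covariate (2.25% of all genes). At day 7, KD against control gave 3 with the replicate block within the day. The block in the fit of all arrays changed no other call of a member. The difference between the days gave 20 members and a median of 1.22 without replicate 3 of both day 0 groups (0.379% of all genes called higher). Over fits without 1 replicate (or replicate 3 of a day), counts ran from 0 to 34 and medians from -1.19 to -0.54 at day 0, counts stayed at 0 and medians ran from -0.02 to 0.12 at day 7, and counts ran from 0 to 25 and medians from 0.57 to 1.24 for the difference. For the rise with differentiation, these medians ran from 2.99 to 3.72 in KD and from 2.32 to 2.50 in control cells. The largest counts, the day 0 median of -1.19, the 1.24 and the 3.72 are those without KD replicate 3 of day 0, the 2.50 is without control replicate 4 of day 7 and the 0.12 without KD replicate 4 of day 7. The alternatives for the other gene lists were chosen after seeing the data. Of 5084 gene and setting values, 113 gained a call, and 0 with a call in either fit changed sign. Members without a call did change sign. At day 7, 24 lay above 0 in the main fit, 17 with the beta-actin covariate and 33 without KD replicate 4 of day 7. The cause of these shifts was not tested. Dim probe sets understate changes, and with 3 or 4 arrays a group a missed threshold does not show equal levels.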
